A study of Mus musculus with 14 samples.

Results

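E proteins, Id proteins and Hand2 are the dimerization partners and rivals of the basic helix-loop-helix (bHLH) transcription factor TWIST1, and their transcripts were followed here in mouse embryo heads with altered Twist1 dosage. The members were every array probe annotated with the symbol Tcf3, Tcf4, Tcf12, Id1, Id2, Id3, Id4 or Hand2, which gave 17 of the 45281 probes. Of these, 14 were above background (detection p under 0.05) on at least 3 arrays, against 17991 such probes with a gene name in all. Each gene kept its brightest such probe for the main test, so all 8 genes were tested among 11394. Tcf3, Id2, Tcf12 and Id4 also had other probes above background, which were tested separately.

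The study asked what Twist1 controls in the cranial mesoderm. Total RNA of heads at E8.5, with 5 to 7 somites and of mixed C57Bl/6 x 129 x BALB/c strain, was hybridised to 14 Illumina bead arrays. CM-CKO heads were Twist1flox/del; Mesp1Cre/+ (n = 4), CM-Het heads Twist1flox/+; Mesp1Cre/+ (n = 3), Het heads Twist1flox/del; Mesp1+/+ (n = 3) and Control heads Twist1flox/+; Mesp1+/+ (n = 4). All 4 genotypes therefore carried 1 floxed Twist1 allele. Mesp1-Cre is a knock-in that acts in descendants of Mesp1-expressing mesoderm. CM-CKO therefore differed from Control in Cre and in the Mesp1 allele that carries it. CM-CKO heads also had a deleted Twist1 allele in every cell, and recombination of the floxed allele in the Mesp1 lineage. The labels do not state what separates replicates (embryo, litter or pool), and p-values therefore cover only sample-to-sample spread, part of which may be technical. A head is a mixture of cell types, and fewer cells of a type cannot be told apart from less RNA per cell. Beadchip 1 held all CM-Het and Het arrays, beadchip 2 held CM-CKO 1 and 2 with every Control, and beadchip 3 held CM-CKO 3 and 4. Beadchip and genotype therefore cannot be told apart in CM-CKO against Het or CM-Het, in CM-Het or Het against Control, or in the interaction.

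A bHLH factor binds DNA as a dimer at E-boxes, sites with the letters CANNTG. The E proteins, encoded by Tcf3 (E2A), Tcf4 (E2-2) and Tcf12 (HEB), are broadly expressed and pair with tissue-restricted bHLH factors such as TWIST1 and HAND2. Id proteins carry the helix-loop-helix but no basic region, so they hold E proteins in dimers that do not bind DNA, and BMP signalling is a known inducer of Id genes. HAND2 works in the heart field, limb and pharyngeal arches and can compete with TWIST1 for partners. In the coronal suture and the limb the balance of these dimers is known to matter for TWIST1 function.

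The promoters of Id2 and Hand2 are shown because these genes gave the least settled readings. Each window runs from 250 bases before to 50 bases after the gene's start in RefSeq (GRCm38.p6), 5′ to 3′ on the gene's strand, and capitals mark each CANNTG match. The Id2 window is chr12:25096043-25096342 on the minus strand, with 1 match (CAGCTG). The Hand2 window is chr8:57320733-57321032 on the plus strand, with 2 matches (CATCTG and CACTTG).
Id2: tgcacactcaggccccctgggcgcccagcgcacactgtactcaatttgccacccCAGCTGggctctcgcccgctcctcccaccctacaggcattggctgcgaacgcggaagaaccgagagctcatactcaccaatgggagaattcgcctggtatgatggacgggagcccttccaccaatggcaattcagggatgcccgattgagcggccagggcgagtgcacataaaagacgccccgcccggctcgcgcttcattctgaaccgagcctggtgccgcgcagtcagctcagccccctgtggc
Hand2: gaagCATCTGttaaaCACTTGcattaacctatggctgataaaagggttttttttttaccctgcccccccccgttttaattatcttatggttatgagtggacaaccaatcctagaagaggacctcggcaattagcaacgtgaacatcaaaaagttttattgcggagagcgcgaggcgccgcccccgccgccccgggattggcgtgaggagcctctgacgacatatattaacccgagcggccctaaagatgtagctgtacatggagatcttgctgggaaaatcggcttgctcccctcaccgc
CANNTG reads the same on both strands, and of 32851 RefSeq windows of this length 72.3% hold at least 1 match and 39.6% at least 2. Windows were listed for 6 of the 8 genes. Tcf3 had 1 match, the 3 windows of Tcf12 had 1, 2 and 1, and those of Id3 and Id4 had 0. A match is a description of the letters, not a site of binding. No array value here reads the promoter itself.

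Signal is given as log2 intensity after background correction and quantile normalization with limma's neqc, and differences are between means of these values, first group minus second. Adjusted p-values are limma's, by Benjamini-Hochberg over all 11394 genes unless a probe fit is named, and a gene was called under 0.05. Between 40.3% and 43% of all probes were above background on an array, and CM-CKO 3, CM-CKO 4 and Het 3 lacked Xist signal. Twist1 itself had a mean log2 signal of 7.75 ± 0.14 in CM-CKO, 8.65 ± 0.14 in CM-Het, 8.60 ± 0.12 in Het and 9.32 ± 0.20 in Control (SD, n = 4, 3, 3 and 4). It was 2.95-fold lower in CM-CKO than in Control (log2 -1.56, SE 0.10, adjusted p = 1.28e-07), and its order over the genotypes followed the intact copies that the labels give.

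Against this change in Twist1, 0 of the 8 members were called in CM-CKO against Control, where 80 of 11394 genes (0.702%) were called, and 0 had an unadjusted p under 0.05, against 11.2% of all genes. The arrays of CM-CKO and Control overlapped for all 8 kept probes, while 5.44% of genes had groups that did not overlap. Of the members, 4 read higher and 4 lower. Their median difference was -0.0128 on the log2 scale, beside 0.00213 over all genes, and their median absolute difference was 0.103, beside 0.0963. The 95% intervals of the differences reached at most 0.58 on the log2 scale, or 1.5-fold, for Id4. A larger change lies outside the intervals of the 7 kept probes that were above background, Hand2 being under background in both genotypes. This holds for the kept probes only. The Id2 probes ILMN_1236868 and ILMN_2887239, which were not kept, had 95% intervals of -0.94 to -0.18 and 0.22 to 0.84. Smaller changes within a probe's own interval, which for Tcf4 ran from -0.15 to 0.16, are not excluded. These are signals of whole heads, so a change limited to a small share of the cells would be diluted.

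**Figure D1:**
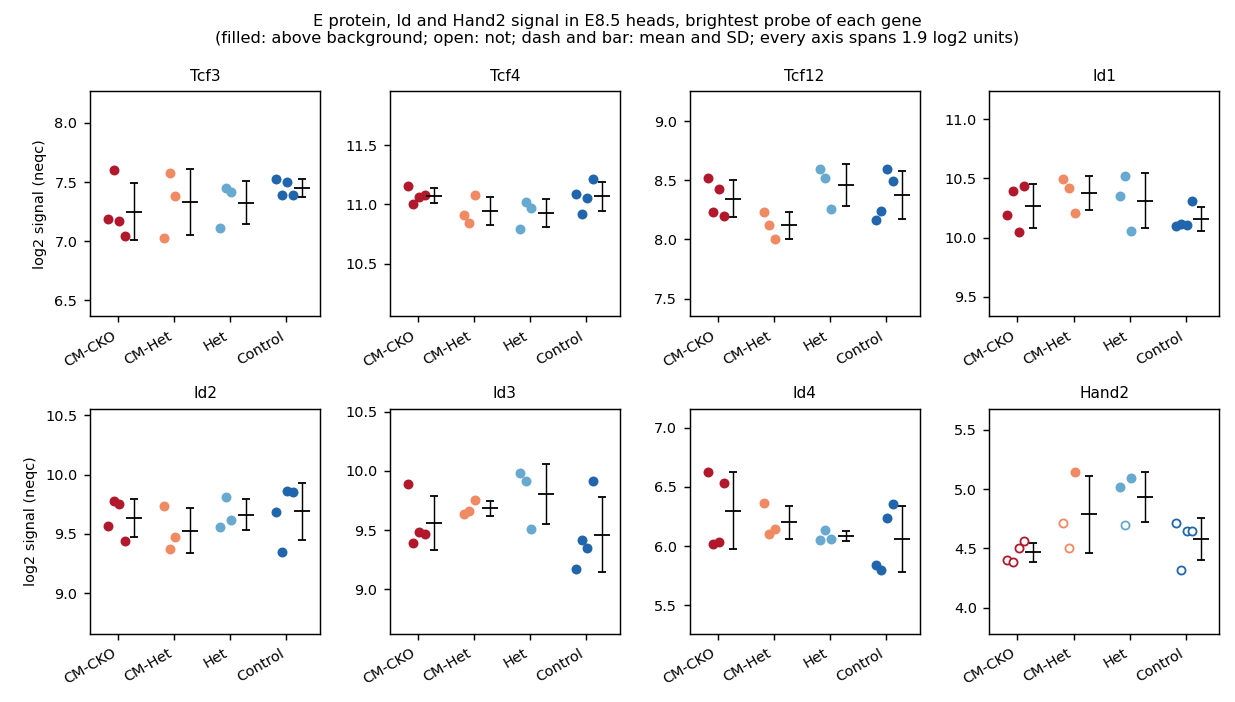
Log2 signal of the kept probe of each member on each of the 14 arrays (vertical axis, a panel per gene), by genotype from CM-CKO at the left to Control at the right; dots are arrays, open where not above background, and bars the mean ± SD. In every panel the arrays of CM-CKO and Control overlap.

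Among the E proteins, Tcf4 was the steadiest. Its log2 signal was 11.15, 11.00, 11.06 and 11.08 on the CM-CKO arrays, 10.91, 10.85 and 11.08 in CM-Het, 10.80, 11.02 and 10.97 in Het, and 11.09, 10.92, 11.05 and 11.21 in Control. CM-CKO and Control overlapped throughout, with a difference of 0.01 (SE 0.07, 95% interval -0.15 to 0.16, adjusted p = 0.985). The residual SD of Tcf4 over the 14 arrays was 0.106, at percentile 20.5 of all genes, whose median was 0.160. The other 2 Tcf4 probes were above background on 0 arrays, so Tcf4 rests on 1 probe.

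Tcf3 read 7.18, 7.60, 7.17 and 7.05 in CM-CKO, 7.03, 7.58 and 7.39 in CM-Het, 7.12, 7.45 and 7.41 in Het, and 7.53, 7.39, 7.50 and 7.39 in Control. Of the CM-CKO arrays, 3 lay below every Control array and CM-CKO 2 lay above all of them. The difference was -0.20 (SE 0.14, 95% interval -0.49 to 0.09, adjusted p = 0.611). It was -0.06 within beadchip 2, while CM-CKO 3 and 4 on beadchip 3 lay -0.34 from Control (unadjusted p = 0.0245, adjusted p = 0.466). The other Tcf3 probe read -0.17, and the pair of probes followed each other over the arrays at a Pearson r of 0.643 (n = 14 arrays, which share their normalization).

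Tcf12 had the largest F over the 4 genotypes among the E proteins (2.54), which did not pass (adjusted p = 0.441). Its kept probe read 8.52, 8.23, 8.43 and 8.20 in CM-CKO, 8.23, 8.12 and 8.0 in CM-Het, 8.60, 8.52 and 8.26 in Het, and 8.17, 8.24, 8.60 and 8.5 in Control. All 3 CM-Het arrays lay below all 3 Het arrays, a pattern that 10.4% of all genes showed in one direction or the other. CM-CKO and Control overlapped, and their means of 8.34 ± 0.16 and 8.38 ± 0.20 (SD, n = 4 each) differed by -0.03 (SE 0.11, 95% interval -0.27 to 0.21, adjusted p = 0.952). CM-Het was lower than Het by 0.34 (log2 -0.34, unadjusted p = 0.018, adjusted p = 0.999), a comparison within 1 beadchip in which 0 of 11394 genes (0%) were called and 3.96% had an unadjusted p under 0.05. CM-Het against Control gave -0.26 (unadjusted p = 0.0498, adjusted p = 0.315), where 0.412% of genes were called and 15.8% had an unadjusted p under 0.05.

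A dimmer Tcf12 probe, ILMN_2722602, was lowest in CM-Het as well. It was fitted, as were all probes not kept, over all 17991 probes. It read 5.95, 5.00, 5.64 and 5.50 in CM-CKO, 4.97, 4.95 and 4.97 in CM-Het, 5.77, 5.72 and 5.46 in Het, and 5.52, 5.48, 5.76 and 5.51 in Control. The CM-Het arrays lay below every array of each other genotype, and CM-CKO 2, at 5.00, sat closest to them. CM-CKO minus CM-Het was 0.56 (unadjusted p = 0.0049, adjusted p = 0.278), beside 11% of probes not overlapping. CM-Het minus Control was -0.60 (SE 0.17, unadjusted p = 0.00285, adjusted p = 0.119), beside 0.434% of probes called and 14.5% of probes not overlapping. CM-Het minus Het was -0.69 (SE 0.19, unadjusted p = 0.00176, adjusted p = 0.999), with 0% of probes called and 10.3% not overlapping. These sizes rest on the background correction: in the deposited log2 values the probe gave -0.19 from Control and -0.22 from Het, against -0.20 and -0.27 for the kept probe. This probe followed the kept one at r = 0.8, whereas the Tcf12 probe ILMN_1258340 followed it at r = 0.152 and read -0.14 in CM-CKO against Control. A further Tcf12 probe was above background on 0 arrays. The files do not say which Tcf12 transcripts each probe reads.

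The Id genes are rivals of TWIST1 for E proteins, and 3 of the 4 read slightly higher in CM-CKO than in Control on their kept probes, none past the test. Id1 read 10.19, 10.39, 10.05 and 10.44 in CM-CKO, 10.50, 10.42 and 10.21 in CM-Het, 10.36, 10.52 and 10.06 in Het, and 10.10, 10.11, 10.10 and 10.31 in Control. CM-CKO 3 lay below every Control array, so the groups overlapped, and the difference was 0.11 (SE 0.10, 95% interval -0.11 to 0.33, adjusted p = 0.726). CM-Het had the highest of the 4 means, 10.38 ± 0.15 (SD, n = 3), and Control the lowest, 10.16 ± 0.10 (n = 4), and no neighbours in that order were called apart.

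Id3 read 9.89, 9.39, 9.48 and 9.47 in CM-CKO, 9.64, 9.66 and 9.76 in CM-Het, 9.98, 9.91 and 9.51 in Het, and 9.17, 9.41, 9.35 and 9.92 in Control. A single array stood high in each of CM-CKO and Control, CM-CKO 1 and Control 4. CM-CKO minus Control was 0.10 (SE 0.14, 95% interval -0.20 to 0.40, adjusted p = 0.849), and it was -0.02 without CM-CKO 1. Het minus Control was larger at 0.34 (SE 0.15, unadjusted p = 0.0417, adjusted p = 0.378), where 0% of genes were called and 12.4% had an unadjusted p under 0.05. With the mean of the heart muscle markers as a covariate that difference was 0.13 (adjusted p = 0.702). The mean of the heart muscle list, 16 of 20 markers measured, ran from 6.30 to 8.26 in CM-CKO, 6.60 to 6.80 in CM-Het, 6.31 to 7.61 in Het and 6.54 to 8.93 in Control.

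Id4, which is known in neural progenitors, had the widest interval. It read 6.62, 6.02, 6.03 and 6.53 in CM-CKO, 6.36, 6.10 and 6.14 in CM-Het, 6.05, 6.13 and 6.06 in Het, and 5.84, 5.80, 6.23 and 6.35 in Control. CM-CKO 1 and 4 lay above every Control array, and CM-CKO 2 and 3 lay among them. The difference was 0.24 (SE 0.16, 95% interval -0.09 to 0.58, adjusted p = 0.597), with an exact two-sided permutation p of 0.314 (n = 4 each; the smallest that 4 against 4 arrays allow is 0.0286). The other Id4 probe, above background on 13 of 14 arrays, read 0.10. The neural tube markers, 18 of 20 measured, had means of 6.92 to 7.12 in CM-CKO and 6.91 to 7.05 in Control. Their part in the Id4 values was not tested.

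Id2 has no settled direction, since its probes disagreed. The kept and brightest probe, ILMN_1228557, read 9.57, 9.78, 9.75 and 9.44 in CM-CKO, 9.74, 9.37 and 9.47 in CM-Het, 9.56, 9.81 and 9.61 in Het, and 9.69, 9.35, 9.87 and 9.86 in Control. All 4 genotypes overlapped, and CM-CKO minus Control was -0.06 (SE 0.11, 95% interval -0.30 to 0.19, adjusted p = 0.912).

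The probe ILMN_1236868 read lower with the deleted allele. Its values were 8.98, 9.30, 9.51 and 9.0 in CM-CKO, 9.60, 9.33 and 9.75 in CM-Het, 9.30, 9.26 and 8.47 in Het, and 9.72, 9.30, 10.07 and 9.94 in Control. The Het arrays lay below every Control array, though Het 1 and Control 2 both round to 9.30, while those of CM-CKO overlapped with Control. Het minus Control was -0.75 (SE 0.20, unadjusted p = 0.00133, adjusted p = 0.134), beside 0.0222% of probes called and 11.7% not overlapping. CM-CKO minus Control was -0.56 (SE 0.18, unadjusted p = 0.00681, adjusted p = 0.238), beside 0.484% of probes called. Averaged over Mesp1-Cre, the deleted allele gave -0.56 (SE 0.14, unadjusted p = 0.000891, adjusted p = 0.288), beside 0.0667% of probes called. Within beadchip 1, CM-Het minus Het was 0.55 (unadjusted p = 0.0174, adjusted p = 0.999), and these arrays did not overlap, as for 10.3% of all probes. Het 3, at 8.47, was the lowest array, and without it and the other arrays that lack Xist signal Het minus Control was -0.48 (adjusted p = 0.281).

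The dimmest Id2 probe, ILMN_2887239, read the other way. Its values were 6.28, 5.94, 6.00 and 6.06 in CM-CKO, 6.14, 5.48 and 5.82 in CM-Het, 5.66, 5.97 and 5.93 in Het, and 5.59, 5.31, 5.67 and 5.58 in Control. Every CM-CKO array lay above every Control array, which 5.07% of all probes did in one direction or the other. The difference was 0.53 (SE 0.15, unadjusted p = 0.0019, adjusted p = 0.151), and the deleted allele averaged over Mesp1-Cre gave 0.29 (unadjusted p = 0.0191, adjusted p = 0.644). The size rests on the normalization: CM-CKO minus Control was 0.21 in the deposited log2 values and with median scaling alike, where ILMN_1236868 gave -0.50 and -0.46. Over the 14 arrays the 2 outer probes ran against each other (r = -0.371), and each followed the kept probe weakly, at r = 0.423 for ILMN_1236868 and 0.257 for ILMN_2887239. None of the 3 Id2 probes passed in any comparison. Id2 lies on chromosome 12, as Twist1 does. The arrays carry no genotype at Id2, and the part of linked strain alleles in the probe values was not tested.

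**Figure D2:**
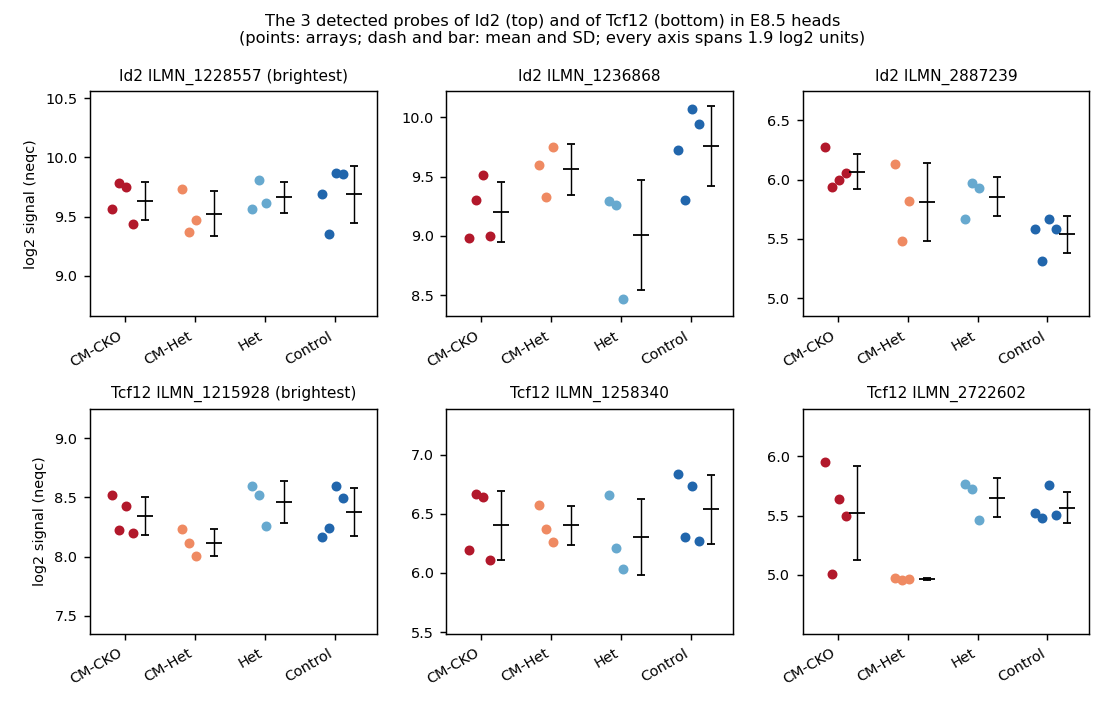
Log2 signal of the Id2 and Tcf12 probes above background on each array (vertical axis, the same span of 1.9 log2 units in each panel), by genotype from CM-CKO at the left to Control at the right; dots are arrays and bars the mean ± SD. CM-CKO lies above Control on Id2 ILMN_2887239 and mostly below it on ILMN_1236868, and the 3 CM-Het arrays are lowest on Tcf12 ILMN_2722602.

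Hand2 was at or near background in these heads. It read 4.40, 4.39, 4.51 and 4.56 in CM-CKO, 4.71, 4.51 and 5.14 in CM-Het, 5.01, 4.70 and 5.09 in Het, and 4.71, 4.32, 4.65 and 4.65 in Control. The probe exceeded background on 0 of 4 arrays in CM-CKO, 1 of 3 in CM-Het, 2 of 3 in Het and 0 of 4 in Control, and it passed the filter only through those 3 arrays, CM-Het 3, Het 1 and Het 3. CM-CKO and Control are therefore both not well above background and have no fold between them (means 4.47 ± 0.08 and 4.58 ± 0.18, SD, n = 4 each; adjusted p = 0.812). The Het mean was 4.93 ± 0.21 (n = 3). With a floor in place of the dim signals, the Het mean stood 1.15-fold above CM-CKO and 1.14-fold above Control. The limma tests, without that floor, gave adjusted p = 0.368 and 0.361. Neither passed, and since Hand2 was kept only through arrays on which it is high, these values support no difference. The 3 Het arrays read above all CM-CKO arrays, as 8.24% of genes did in one direction or the other, and 0.219% of genes were called there. Of the other 7 members 0 had an unadjusted p under 0.05 in that comparison, against 7.99% of genes. Both folds compare the Het mean, which includes Het 2 under background, with a floor for the other genotype and carry no sampling error. On each array the floor is the dim probe's own signal or the lowest signal of any probe above background, whichever is greater.

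Every array with Hand2 above background lay on beadchip 1, and beadchip 1 holds only CM-Het and Het. The heart muscle mean on these 3 arrays was 6.80 in CM-Het 3, 6.41 in Het 1 and 7.61 in Het 3. The highest heart muscle means were those of Control 1 (8.93) and Control 3 (8.65), where Hand2 was under background. With the heart muscle mean as a covariate, CM-CKO against Het had an adjusted p of 0.264 and Het against Control of 0.34. All these Hand2 signals are at or near background, and the part of heart tissue in them was not tested. Neural crest markers, 8 of 12 measured, had overlapping means of 8.80 to 9.37 in CM-CKO, 8.77 to 9.17 in CM-Het, 8.84 to 9.53 in Het and 8.99 to 9.43 in Control.

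**Figure D3:**
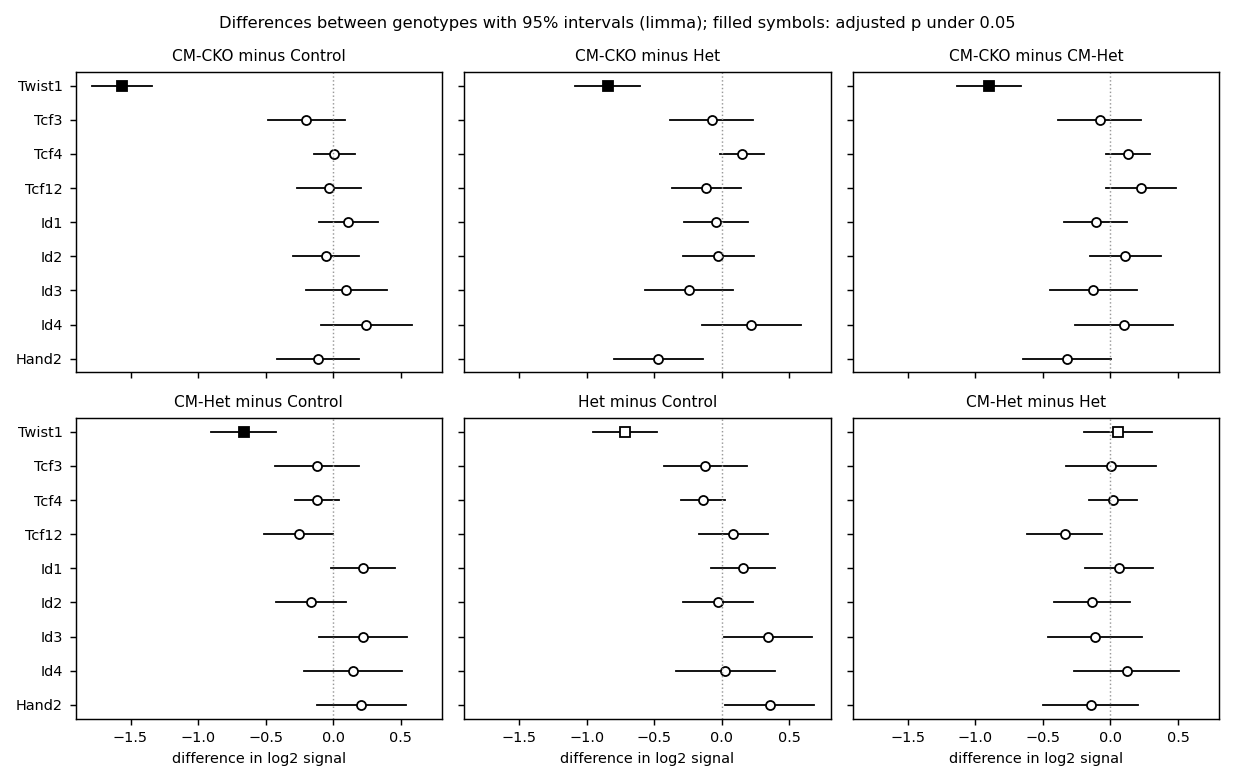
Difference in log2 signal (horizontal axis) of the kept probe of each member for the 6 pairs of genotypes; points are the limma estimates, lines the 95% intervals, and squares Twist1. Every member's interval between CM-CKO and Control holds 0, and the Hand2 estimates rest on signals under background in CM-CKO and Control.

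Across all 9 comparisons and the test of any difference among the 4 genotypes, 0 of the 8 members were called. In Het against Control and in CM-Het against Het 0 of 11394 genes were called, so the count of members says little there. Twist1 itself missed the threshold in Het against Control (log2 -0.72, adjusted p = 0.0823). The remaining shares of called genes were 0.211% in CM-CKO against CM-Het, 0.263% for Mesp1-Cre averaged over the second Twist1 allele, 0.0878% for the deleted allele averaged over Mesp1-Cre, 1% for the interaction and 0.799% for any difference. An unadjusted p under 0.05 was reached by 0 members in CM-CKO against CM-Het, where 10.6% of genes had one, by 0 for the deleted allele on average, and by Tcf12 alone for Mesp1-Cre on average (log2 -0.19, unadjusted p = 0.0453, adjusted p = 0.671), with 7.24% of genes in each average. Over any difference 0 members other than Hand2 reached it, beside 13.7% of genes. The smallest adjusted p of any member was 0.146, for Hand2 in the interaction. That value sets CM-CKO and Control, where Hand2 was above background on 0 of 8 arrays, against the genotypes through which it passed the filter, so no size is given and it supports no difference. The 6 other probes of the members gave 0 calls in all 9 comparisons, and the shares of all probes called that stand nowhere above were 0.145% in CM-CKO against Het, 0.122% in CM-CKO against CM-Het, 0.2% for Mesp1-Cre and 1.09% for the interaction. Arrays that did not overlap were found for 0 kept probes in CM-CKO against CM-Het, CM-Het against Control and Het against Control, where 11.1%, 14.5% and 11.3% of genes showed them. In the interaction Id3 stood at -0.47 (unadjusted p = 0.0473, adjusted p = 0.31) and Tcf4 at 0.27 (unadjusted p = 0.0252, adjusted p = 0.248), where 15.8% of genes had an unadjusted p under 0.05. A negative value here means that the difference between Cre and no Cre was lower with the deleted allele than without it. With the beadchip as a random block the adjusted p of Hand2 was 0.0361, on the same signals under background and with a negative estimated correlation (-0.0585), which narrows errors between beadchips. With that block 714 of 11394 genes were called for the interaction, beside 114 in the main fit. A shift of beadchip 1 against the others enters the interaction through both CM-Het and Het, with the same sign. Beadchip and interaction therefore cannot be told apart.

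The members varied unequally within genotypes. Residual SDs of the kept probes were 0.244 for Id3 and 0.242 for Id4, at percentiles 84.3 and 83.8 of all genes. Tcf3 and Hand2 had 0.204 each, Id2 0.189, Tcf12 0.170 and Id1 0.169. By the rule of highest Pearson r over the 14 arrays, the genes most like each member were Nat10 for Tcf3 (0.814), Vps16 for Tcf4 (0.858), Sdc3 for Tcf12 (0.938), Rtl1 for Id1 (0.816), Gm2897 for Id2 (0.866), Stk16 for Id3 (0.872), Knop1 for Id4 (0.867) and Tusc1 for Hand2 (0.825). Each is the highest of the values over the tested genes outside the members, from 14 arrays of shared processing. The members were left out of that ranking, and between members the highest r was 0.543, for Tcf12 and Id2.

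Some other bHLH genes were called in CM-CKO against Control, from a list chosen with earlier results of these data known. Of 38 genes listed as further bHLH partners and rivals of E proteins, 19 were tested. In CM-CKO against Control 4 were called lower, the targeted Twist1 included, and 1 higher, beside 0.702% of all genes called. The list median was 0.0477. Twist2, the paralogue of Twist1, had a mean log2 signal of 4.90 in CM-CKO and 6.21 in Control (log2 -1.31, SE 0.19, adjusted p = 0.0012). Its probe exceeded background on 3 of 4 arrays in CM-CKO and 4 of 4 in Control. Tcf15 (paraxis), a bHLH factor of paraxial mesoderm, fell by 1.32 on the log2 scale (adjusted p = 0.016), and Tal1, of blood and vessel precursors, fell by 0.75 (adjusted p = 0.00845). Tal1 is also 1 of 9 primitive erythroid markers tested, of which 7 read higher and 2 lower (median 0.113). The part of blood or vessel cells in the Tal1 value was not tested. Hey1, a NOTCH target that represses transcription, rose by 0.45 (SE 0.09, adjusted p = 0.0178). In the deposited log2 values, which have no background correction, the differences were smaller, -0.48 for Twist2, -0.63 for Tcf15 and -0.365 for Tal1, while Hey1 stood at 0.40, and all 4 passed (adjusted p = 0.00324, 0.0288, 0.00954 and 0.0202). A fixed beadchip block set beadchip 3 apart, so its differences rest on CM-CKO 1 and 2, as they do within beadchip 2. It left those of Tcf15, Tal1 and Hey1 at -1.39, -0.825 and 0.42, near the differences of all arrays. With wider errors these 3 genes missed the threshold (adjusted p = 0.113, 0.0565 and 0.22). Twist2 missed it within beadchip 2 at -1.36 (adjusted p = 0.114). Of these 5 genes, only Twist1 was called in CM-CKO against Het and against CM-Het.

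Of 29 genes of BMP signalling, the pathway known to drive Id genes, 19 were tested and 0 were called in CM-CKO against Control, with 13 higher, 6 lower and a median of 0.0472. The largest differences were those of the endothelial co-receptor Eng (log2 -0.59, adjusted p = 0.295), the receptor Acvr2a (0.26, adjusted p = 0.539) and the BMP-binding protein Bmper (0.22, adjusted p = 0.676). The endothelial marker list, 19 of 20 measured, had a mean of 7.32 to 7.44 in CM-CKO, 7.42 to 7.57 in CM-Het, 7.57 to 7.63 in Het and 7.55 to 7.82 in Control, so every CM-CKO array lay below every Control array. Id1 and Id3 are also expressed in endothelium, and the part of these cells in their values was not tested.

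Of 24 genes that work with Hand2 in the pharyngeal arches and heart field, 18 were tested and 0 were called, 9 higher and 9 lower, with a median of 0.00247. Gsc, a homeobox gene of the arches, had the largest difference, with 7.51 in CM-CKO and 6.90 in Control (log2 0.62, SE 0.14, adjusted p = 0.0603). The cardiac factors Gata5 and Gata6 read -0.59 (SE 0.33, adjusted p = 0.517) and -0.58 (SE 0.40, adjusted p = 0.613). The heart muscle list had a median of -0.473, with 13 of 16 lower and 0 called. The part of heart tissue in the values of Gata5 and Gata6 was not tested. In Het against Control the Hand2 list had a median of -0.24 and the heart muscle list of -0.98, with 15 of 16 lower and 0 called.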

How the data were processed

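Genotypes were taken from the labels for all 14 arrays. Per the file headers and values, the deposited intensity of each probe is on a linear scale, without normalization or background correction. Deposited detection p-values do not lie on the rows of their intensities (rank correlation -0.105 to -0.0946) and were put back by rank within each array, a step chosen after values were seen. The deposited log2 values, which equal quantile normalized intensities within 0.0329, were an alternative. Genome build and upstream software: not given in the sources used here.

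Intensities were processed with neqc (offset 16) of limma 3.58.1 in R 4.3.3. Probes were kept where at least 3 arrays had a detection p under 0.05. Symbols came from the platform annotation (34885 probes with 1, 18 with several, 10378 with none; 34852 matched RefSeq). Group means were fitted with lmFit and eBayes with a trend, called at an adjusted p under 0.05. The fit was tested on simulated data. The median of array intensities was 92.3 to 116, and the number of arrays limits the precision.

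The members, lists and probes were chosen with earlier results of these data known. Named genes are all members, the called genes and the 3 largest differences of each related list, and the gene most like each member. Alternatives were the normalization, filter, beadchip block, replicate block, covariate and leaving out arrays.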

Additional observations from a re-analysis of the deposited data

Results flagged for a closer look

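In groups of 4 arrays, 28 sets of member values were checked for an array far from its group, of which chance would mark about 1 in 20, and 3 were marked by Dixon's 95% critical value. On the Id1 probe, Control 4 read 10.31, while the other Control arrays read 10.10 to 10.11, a gap of 0.923 of the range. On the Hand2 probe, Control 2 read 4.32 beside 4.65 to 4.71, a gap of 0.84 of the range, with all 4 arrays under background. On the Tcf12 probe ILMN_2722602, Control 3 read 5.76 beside 5.48 to 5.52, a gap of 0.854 of the range.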

How the results depend on the processing

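Over 244 counts of called members under other settings, 1 was above 0, the interaction with the beadchip as a random block, where 1 member (Hand2) passed. In that setting 714 of 11394 genes were called for the interaction, beside 114 in the main fit. Hand2 passed the filter only through CM-Het and Het arrays, so this call supports no difference. The difference of Tcf12 between CM-CKO and Control turned to 0.00454 with median scaling without background correction. With single arrays left out, differences from Control that turned ran from -0.0154 to 0.248 for Id3, -0.0429 to 0.0543 for Tcf4, -0.1 to 0.043 for Tcf12 and -0.168 to 0.00978 for Id2. Of the other bHLH genes, Twist2 missed the threshold in 2 of 26 settings, Tcf15 in 5 of 27, Tal1 in 4 of 27 and Hey1 in 9 of 28, all with their direction kept. Their highest adjusted p, 0.114, 0.362 and 0.428 for Twist2, Tcf15 and Hey1 within beadchip 2 and 0.275 for Tal1 with the CM-CKO arrays of beadchip 3, came from fits with 2 CM-CKO arrays. Tal1 and Hey1 also missed it with median scaling (adjusted p = 0.153 and 0.28), Tcf15 and Hey1 without the arrays that lack Xist (0.138 each), Tcf15 without CM-CKO 1 (0.0522), and Hey1 without CM-CKO 4 or any of Control 2, 3 and 4 (up to 0.0846). The cause was not tested. Replicate numbers did not pair the samples: of 19 pairs with the same number 4 had a correlation over 0.1. With the number as a replicate block, Tcf3 differed by -0.2 (adjusted p = 0.57) and 0 members were called. Asking for detection on all 14 arrays leaves Hand2 untested. With the detection p-values in their deposited order, 6 of the 8 members were tested and 0 were called in CM-CKO against Control. There 37 of 11647 genes were called, beside 80 of 11394 in the main fit. Signals near background, as for Hand2, compress differences.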
